A study of Mus musculus with 24 samples.

Results

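The comparison described here asks how the response of MuRF1 knockout muscle to dexamethasone (DEX), a synthetic glucocorticoid, differed between 3 and 14 days of treatment. All 12 arrays whose labels give the MuRF1 knockout were used, of 24 in the series, and no measured value entered their choice. RNA from triceps surae, the muscles of the calf, was read on Illumina beadchips, and the mice were C57/Bl6 at 4 months of age. DEX was given in drinking water at 3 mg/kg, and untreated littermates were kept beside each treated group. The knockout arrays formed 4 groups of 3, namely untreated and DEX-treated muscle of the 3-day arm, and untreated and DEX-treated muscle of the 14-day arm. Every one of the 4 groups lacked MuRF1. The labels used here do not say how the allele was made or whether each array stands for a separate animal, so p-values reflect only how far these samples spread, part of which may be technical.

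MuRF1, encoded by Trim63, is a muscle ubiquitin ligase that marks proteins of the contractile apparatus for the proteasome, and glucocorticoids induce it during muscle wasting. Glucocorticoids enter the cell and bind their receptor, which then acts on DNA as a transcription factor. Classical receptor targets include Fkbp5, whose product restrains the receptor, and the metallothioneins, while collagen genes and inflammatory genes are classically repressed. Growth control in muscle also runs through insulin and mTOR signalling, whose brake on translation, 4E-BP1, is the product of Eif4ebp1.

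Levels are normalized log2 signals, and an effect is the treated mean minus the untreated mean of the same arm. The quantity of interest is the 14-day effect minus the 3-day effect, so a negative value means that a rise was smaller, or a fall larger, at 14 days. The 3-day and the 14-day effect share no array. All comparisons came from one limma model over 24 arrays and 16262 features, a feature being a gene, or a probe without a gene name, and passed at a Benjamini-Hochberg adjusted p under 0.05. A gene is called transient if the 3-day effect and the difference passed and the 14-day effect did not, and waning if all 3 passed and the 14-day effect was the smaller. It is called late if the 14-day effect and the difference passed and the 3-day effect did not, and sustained if both effects passed in one direction and the difference did not.

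Trim63 lay between 4.46 and 5.16 on the knockout arrays and between 8.07 and 9.95 on the wild-type arrays, so no label went against the genotype. Its DEX effect in the knockout did not pass at 3 days (0.11) or at 14 days (limma adjusted p = 0.637). At 14 days 0 of 3 treated arrays detected it and treated and untreated arrays overlapped, so no size is given. Where the probe sits relative to the deletion is unknown here. All 11 measured muscle fibre markers were detected in every knockout group, and their summed level stayed between 18.24 and 18.42. On the 12 knockout arrays 29.0% to 34.6% of probes were detected, and the median probe signal ran from 84.1 to 100.7. Treated 3-day array 3 stood apart, at 67.8 on the first principal component of the knockout arrays against -29.0 to 17.0 for the other 11, and correlated with another array of its group at r = 0.951. By mean absolute deviation from its group it was the farthest knockout array, at 0.408, and untreated 14-day array 1 was next, at 0.338. Feature counts at 3 days, at 14 days, for the difference and between treated groups are given with and without treated 3-day array 3. List counts are given without it for some lists only. Genes whose difference was called, or whose class, or called value by over 1.5 times, changed without it are also given both ways. With 3 arrays a group, precision is limited throughout by array number.

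At each time DEX changed features in both directions, and more features passed at both times than passed for the difference between the times. At 3 days 873 features (5.37%) passed, 466 higher and 407 lower, and at 14 days 532 (3.27%) passed, 180 higher and 352 lower. Of these, 226 passed at both times, which is 25.9% of the 3-day and 42.5% of the 14-day features. In 92 of them both effects were rises, in 134 both were falls, and in 0 the directions were opposite. The difference between the effects passed in 21 features (0.129%), 11 with a positive (0.0676%) and 10 with a negative value (0.0615%), while 2434 had an unadjusted p under 0.05 (7.28% of all features positive and 7.69% negative). The unadjusted shares were 19.5% for the 3-day and 14.3% for the 14-day effect. A difference is measured less precisely than an effect, with a median standard error of 0.251 against 0.178, so its count is not on an equal footing. These split into 11 transient, 5 waning and 5 late features, against 221 sustained features.

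Without treated 3-day array 3, 527 features passed at 3 days, 700 at 14 days and 17 for the difference, of which 14 were among the 21. The 3-day count was 493 without untreated array 3 and 1332 without treated array 1. The 14-day count lay between 298 and 320 without untreated 14-day array 2 or 3 or treated 14-day array 1 or 2, and was 809 without untreated 14-day array 1. The difference count moved most, to 368 without untreated 14-day array 1, to 115 without treated 3-day array 1, and to between 5 and 9 without untreated 3-day array 2 or 3, untreated 14-day array 2 or 3, or treated 14-day array 2 or 3. The number of sustained features stayed between 154 and 227 in all 12 such fits. Without untreated 14-day array 1 the order turned, with 368 features called for the difference and 207 sustained, as it did with array weights, at 1072 and 627. Median scaling, knockout arrays alone and a replicate block of the signal table's numbers each left 3 of the called differences, those of Tnfrsf12a, Hbb-bs and Hbb-bt.

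A further 636 features passed at 3 days and 301 at 14 days with no call on the difference, so their time course is unresolved. Of the 873 features called at 3 days, 671 (76.9%) kept their sign at 14 days and 757 (86.7%) had a smaller 14-day effect. Of the 532 called at 14 days, 468 (88%) had the same sign at 3 days and 110 (20.7%) had a smaller 14-day effect. Over all features 49.7% had the same sign at both times and 54.6% had a smaller 14-day effect. Each called set was picked on its own time point, which tends to make the other time point the smaller by construction. The median absolute effects of the sustained features were 1.03 at 3 days and 0.998 at 14 days. Sustained features have no called difference by definition, so near-equal effects are favoured by construction. Of the 221, 105 had the smaller effect at 14 days.

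**Figure D1:**
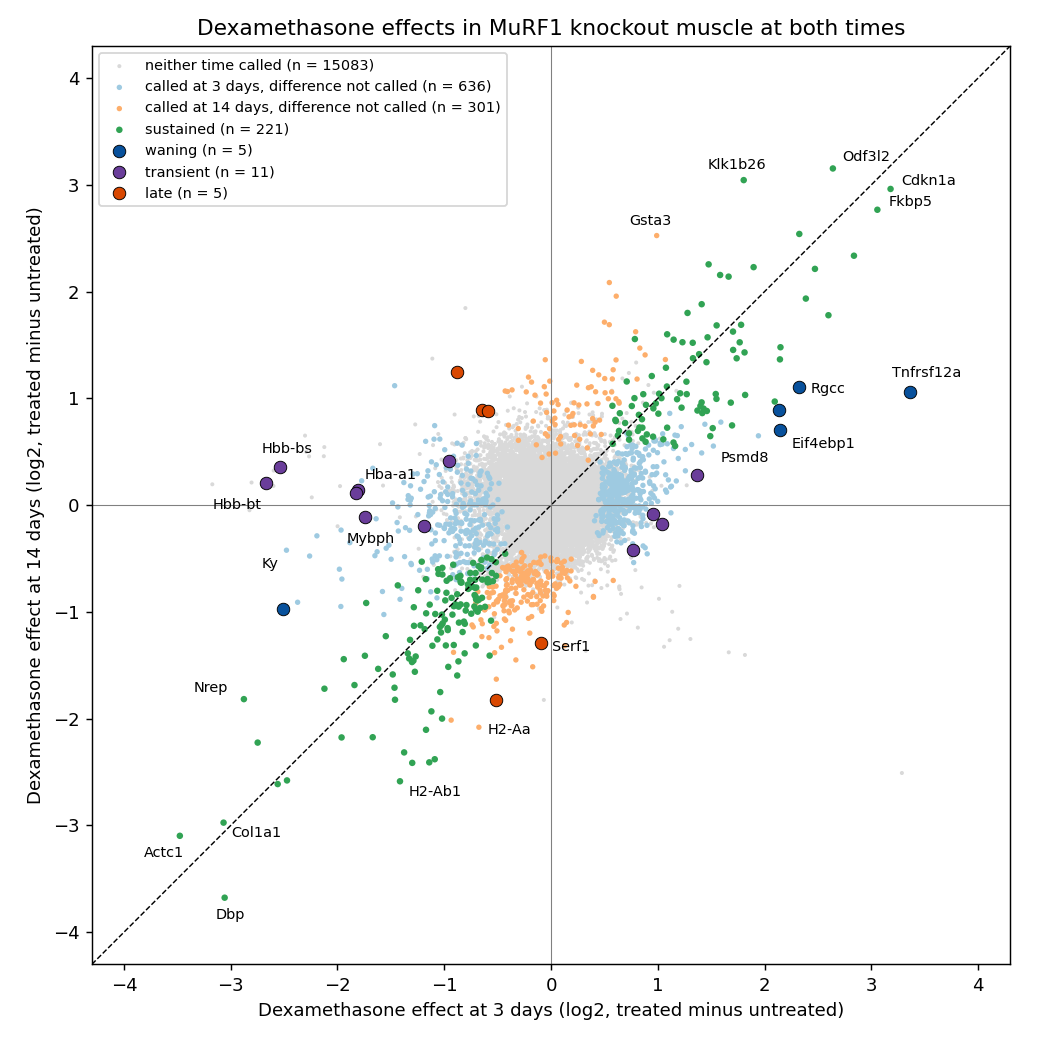
Each point is 1 of 16262 features, with the DEX effect at 3 days on the x axis and at 14 days on the y axis (log2, treated minus untreated), and the dashed line marks equal effects. The 221 sustained features run along the line, which their definition favours. Tnfrsf12a lies below the line, and the globin genes lie left of 0 at a 14-day effect near 0.

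The rises that shrank with time were led by Tnfrsf12a, the receptor for the cytokine TWEAK, which is induced in injured, denervated and wasting muscle. Eif4ebp1 and Rgcc, a regulator of cell cycle kinases, shrank by more than 1 log2 unit as well but still passed at 14 days. Mustn1, a small nuclear protein of the musculoskeletal system, Klhl30, a member of the kelch-like family, and Rrp12, a factor of ribosome assembly, rose at 3 days with no call at 14 days.

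The promoter windows of Tnfrsf12a, the gene with the largest waning rise, and of Mustn1, a transient rise whose call held with any 1 knockout array left out but was lost under 3 of 12 other settings, are shown as RefSeq gives them in build GRCm38.p6. Each holds 300 bases around the gene's start, 5′ to 3′ on the gene's strand, at chr17:23677400-23677699 on the minus strand and chr14:30879007-30879306 on the plus strand. Capitals mark matches on either strand to any of 3 motifs, the glucocorticoid element core TGTTCT, the E-box CACGTG and the heat shock element GAANNTTC.
Tnfrsf12a: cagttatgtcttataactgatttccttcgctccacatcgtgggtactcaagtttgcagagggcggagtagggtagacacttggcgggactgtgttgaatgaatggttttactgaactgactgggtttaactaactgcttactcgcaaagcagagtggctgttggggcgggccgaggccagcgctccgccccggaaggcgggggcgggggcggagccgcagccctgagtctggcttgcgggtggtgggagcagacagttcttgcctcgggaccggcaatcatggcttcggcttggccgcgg
Mustn1: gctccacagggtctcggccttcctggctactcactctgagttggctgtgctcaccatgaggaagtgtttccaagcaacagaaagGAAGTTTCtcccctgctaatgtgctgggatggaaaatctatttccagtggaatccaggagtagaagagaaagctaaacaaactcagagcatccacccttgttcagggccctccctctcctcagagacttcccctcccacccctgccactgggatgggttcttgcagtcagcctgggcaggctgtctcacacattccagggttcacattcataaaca
The window of Tnfrsf12a held no match to the 3 motifs, and that of Mustn1 held 1 heat shock element. Of all 32851 windows searched, 7.86% held that element, 19% the glucocorticoid core and 7.15% the E-box, and a match is only a description of the letters.

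Tnfrsf12a read 7.48, 7.42 and 7.79 on the untreated and 11.00, 10.87 and 10.90 on the treated arrays of the 3-day arm. In the 14-day arm it read 8.26, 8.03 and 8.38 untreated and 9.57, 9.25 and 9.03 treated. Treated arrays lay above untreated ones at both times, with the wider gap at 3 days. The effect was 3.36 at 3 days (SE 0.183, 10.3-fold, adjusted p = 4.13e-11) and 1.06 at 14 days (2.09-fold, adjusted p = 0.000997). The difference of -2.30 (95% interval -2.83 to -1.76, adjusted p = 0.000102) was the largest negative value that passed. With treated 3-day array 3 left out the difference was -2.31. The difference had 2 parts, since treated arrays fell by 1.64 from 3 to 14 days (adjusted p = 1.7e-05) while the untreated arrays lay 0.66 higher in the 14-day arm, which did not pass (adjusted p = 0.461).

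Eif4ebp1 read 9.94, 9.94 and 9.63 untreated and 11.70, 11.92 and 12.33 treated at 3 days. At 14 days it read 9.92, 10.11 and 9.94 untreated and 10.87, 10.53 and 10.67 treated. No treated array overlapped an untreated one, and the untreated arrays of the arms lay together. The effect went from 2.15 to 0.70, a difference of -1.45 (95% interval -1.96 to -0.93, adjusted p = 0.0147). A second Eif4ebp1 probe gave a difference of -0.63. On the probe used, the difference was -1.27 without treated 3-day array 3 (adjusted p = 0.0344). The call was lost, at adjusted p of 0.0510 to 0.0734 by limma, without untreated 3-day array 3, untreated 14-day array 2 or treated 14-day array 2.

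Rgcc read 9.19, 9.17 and 9.18 untreated and 11.19, 11.45 and 11.88 treated at 3 days, against 9.33, 9.80 and 9.60 untreated and 11.01, 10.44 and 10.60 treated at 14 days. The groups did not overlap at either time. Its effect went from 2.33 to 1.10 (difference -1.22, 95% interval -1.70 to -0.74, adjusted p = 0.0292). Treated 3-day array 3 held the highest of all Rgcc values, and without it the difference was -1.03 (adjusted p = 0.0691). The call was also lost, with adjusted p up to 0.105, without any 1 untreated 3-day array, untreated 14-day array 2 or 3, or treated 14-day array 2 or 3.

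Mustn1 read 9.18, 9.50 and 9.29 untreated and 10.22, 10.41 and 10.47 treated at 3 days, and at 14 days 9.60, 10.17 and 9.99 untreated and 9.74, 9.79 and 9.68 treated. The treated arrays were clear of the untreated ones at 3 days and lay among them at 14 days. The effect was 1.04 at 3 days (2.06-fold) and -0.18 at 14 days, a difference of -1.22 (95% interval -1.64 to -0.81, adjusted p = 0.0088). Without treated 3-day array 3 the difference was -1.17 (adjusted p = 0.0261), and under median scaling its adjusted p was 0.392. Treated arrays fell by 0.63 between the times (adjusted p = 0.0169), and untreated arrays differed by 0.59 (adjusted p = 0.246).

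Klhl30 was tight without DEX, at 8.47, 8.43 and 8.44 in the 3-day and 8.28, 8.60 and 8.44 in the 14-day arm. With DEX it read 9.53, 9.83 and 10.06 at 3 days and 8.79, 8.64 and 8.72 at 14 days. The treated arrays stayed above the untreated ones at 14 days too, but that effect of 0.28 did not pass. The 3-day effect was 1.36 and the difference -1.08 (95% interval -1.49 to -0.68, adjusted p = 0.0217). Rrp12 went from an effect of 0.95 to -0.08 (difference -1.04, 95% interval -1.46 to -0.62, adjusted p = 0.0335). Without treated 3-day array 3 the difference was -0.96 for Klhl30 (adjusted p = 0.0593) and -0.93 for Rrp12 (adjusted p = 0.109). Both calls were lost as well, with adjusted p up to 0.0799 for Klhl30 and 0.120 for Rrp12, without untreated 3-day array 2 or 3, untreated 14-day array 2 or 3, or treated 14-day array 2 or 3, and that of Rrp12 without untreated 3-day array 1.

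**Figure D2:**
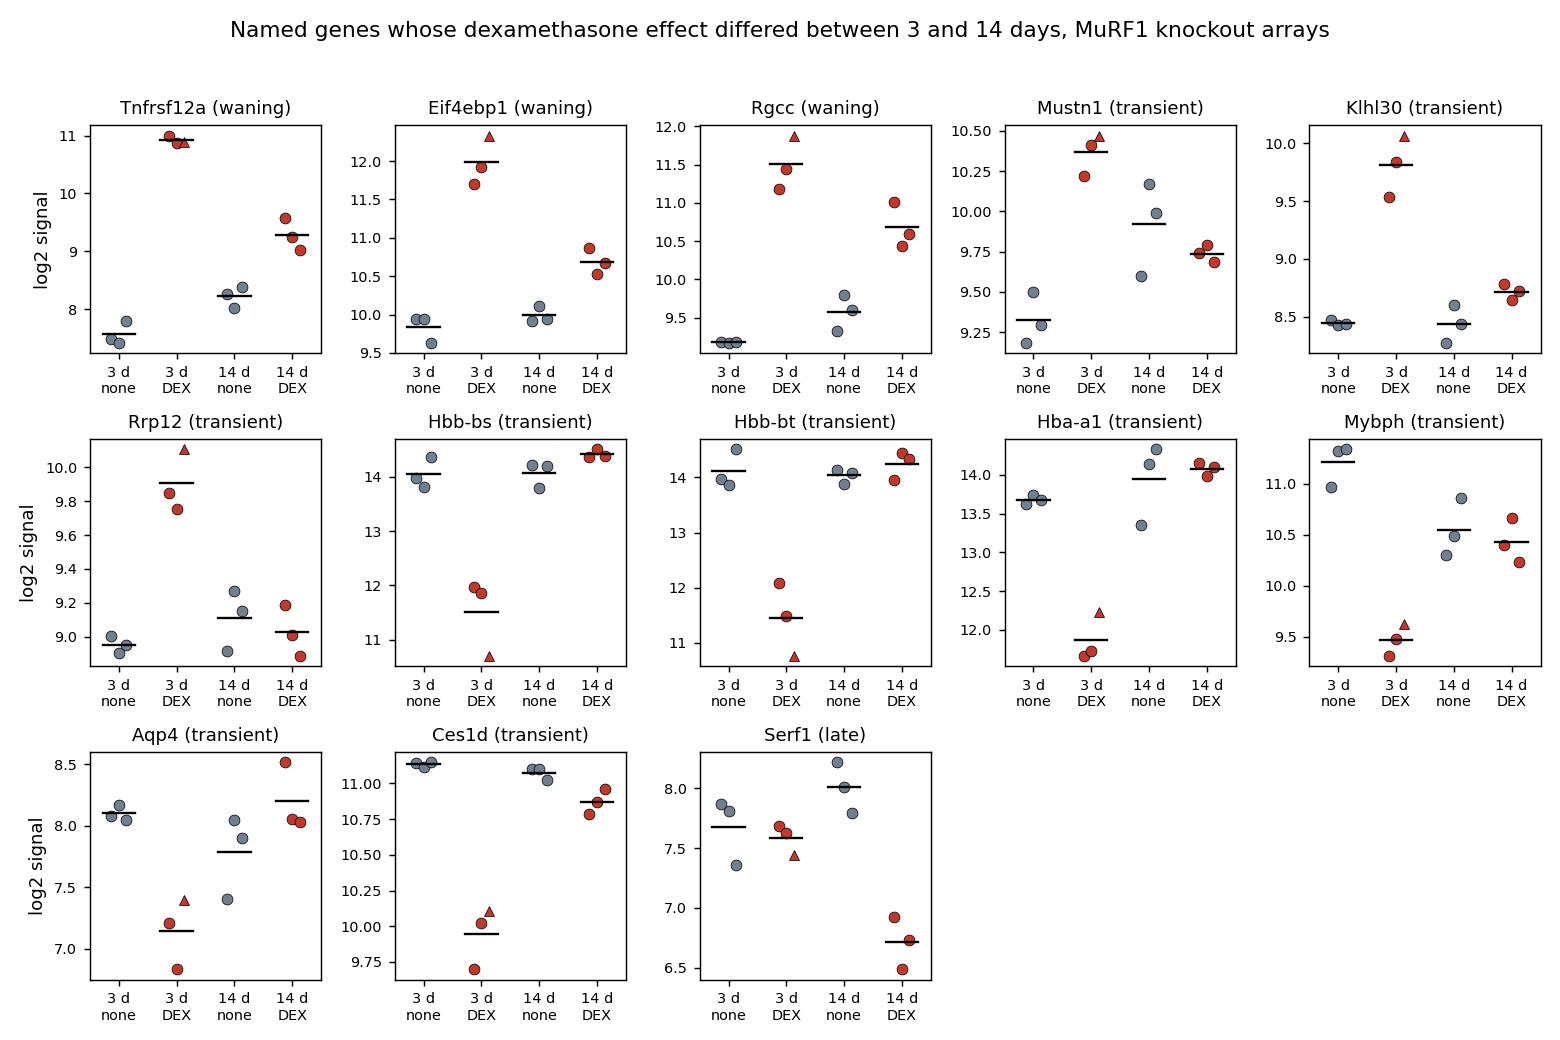
Log2 signal of the 13 named genes whose effect differed between the times, on the 12 knockout arrays (grey, untreated; red, DEX), with group means as bars and treated 3-day array 3 as a triangle. Each panel has its own y axis, and the 3 globin panels show 3-day treated arrays below all others.

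Genes of protein breakdown and folding had lower effects at 14 than at 3 days in most cases, although no proteasome or chaperone gene passed for the difference. Proteasome subunits, which form the particle that degrades ubiquitin-marked proteins, and heat shock proteins, which refold damaged proteins, had members that rose at 3 days, while few members passed at 14 days. Of 41 measured proteasome genes, 7 rose and 3 fell at 3 days, where 2.87% of all features rose and 2.5% fell. At 14 days 0 rose and 2 fell, against 1.11% and 2.16% of all features. The list's median was 0.26 at 3 days and -0.17 at 14 days, and only 5 of 41 members had a difference above 0, compared with 45.9% of all features. Other lists varied in that share, at 20% for matrix genes, 33.3% for oxidative phosphorylation subunits and 55.2% for insulin, IGF and mTOR genes. The median difference was -0.38, beside -0.037 for all features, and 0 members passed for it by limma, with 1 higher and 18 lower at an unadjusted p under 0.05. Without treated 3-day array 3, 4 rose and 1 fell at 3 days, and the median difference was -0.32. Under cyclic loess scaling it was -0.26.

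Psmd8, a lid subunit of the 26S proteasome, had the largest 3-day rise of the list. It read 11.45, 11.29 and 11.04 untreated and 12.54, 12.81 and 12.99 treated at 3 days, against 11.19, 11.38 and 11.45 untreated and 12.11, 11.73 and 11.84 treated at 14 days. Treated arrays were higher at both times, with the wider gap at 3 days. Its effects were 1.52 (adjusted p = 7.5e-07) and 0.55 (adjusted p = 0.0511), and the difference of -0.97 missed the threshold (95% interval -1.42 to -0.51, adjusted p = 0.0691). Without treated 3-day array 3 the 14-day effect of Psmd8 passed (adjusted p = 0.0351), which makes it sustained, and the difference was -0.86 (adjusted p = 0.207). Psmd4, a ubiquitin receptor of the proteasome, had effects of 0.86 and 0.19, although its other probe gave -0.31 and 0.08. Psme1, an interferon-inducible activator subunit, went the other way, having fallen by 0.87 at 3 days and by 0.68 at 14 days. The 14-day call of Psme1 held in 17 of 24 alternative fits, with limma adjusted p up to 0.143. Psmb8, also of the interferon list, fell by 0.80 at 3 days. That call was lost without treated 3-day array 3 (limma adjusted p = 0.31).

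Among 32 heat shock proteins and chaperones, 9 rose and 0 fell at 3 days, against 2.87% and 2.5% of all features, and 1 rose and 0 fell at 14 days, the rises being near the 1.11% of all features. Median effects were 0.22 and -0.02, and 5 of 32 differences were above 0. At an unadjusted p under 0.05, 1 difference was positive and 9 were negative, against 7.28% and 7.69% of all features. Hsph1, a large chaperone of the Hsp110 group, had effects of 0.95 and 0.09, and Hspb7, a small heat shock protein of heart and skeletal muscle, of 1.04 and 0.57. The 14-day effects of both did not pass. Hspa1l, of the Hsp70 group, was the exception that rose at both times, by 1.18 and 0.99. When treated 3-day array 3 was left out, 5 members rose at 3 days. Subunits of TRiC, the chaperonin that folds actin and tubulin, showed medians of 0.22 and -0.11 over 7 genes, with 1 call, a fall of Cct3 by 0.64 at 14 days. The Cct3 call held in 17 of 24 alternative fits, with limma adjusted p up to 0.224. Of 36 genes of translation and ribosome biogenesis, 3 rose at 3 days, among them the initiation factor Eif5 at 0.96, and 0 passed at 14 days. Their median effects were 0.21 and -0.03. The 14-day medians of the heat shock and translation lists turned positive, at 0.0015 and 0.027, under cyclic loess scaling, while their 3-day medians stayed positive and their median differences negative.

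**Figure D3:**
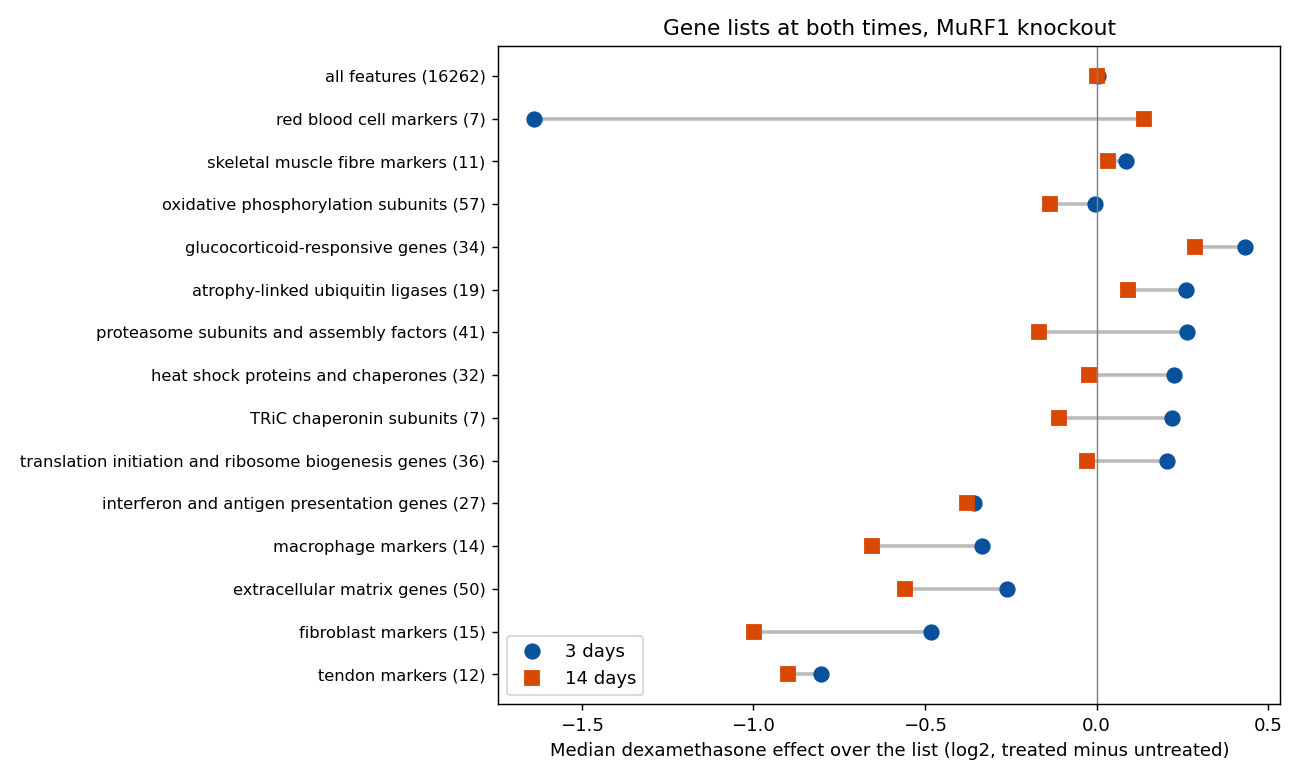
Median DEX effect (log2) of 14 gene lists and of all features at 3 days (circles) and 14 days (squares), with the number of measured genes in brackets. The red blood cell list moves from -1.64 to 0.14, the proteasome, chaperone and translation lists cross 0 (the 14-day heat shock and translation medians turn positive under cyclic loess), and the matrix, fibroblast and tendon lists are below 0 at both times.

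The transient falls were led by the adult globin genes, which encode the oxygen carrier of red blood cells. Hbb-bs, Hbb-bt and Hba-a1 were lower in treated muscle at 3 days by factors of 5.82, 6.34 and 3.50 and had no call at 14 days. Mybph, a myosin-binding protein of the thick filament, Aqp4, the water channel of the fast-fibre membrane, and Ces1d, a carboxylesterase that hydrolyses lipid esters, fell at 3 days with no call at 14 days. In bulk muscle, fewer cells of a type and less RNA per cell cannot be told apart.

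The promoters of the adult beta-globin pair are shown because these neighbouring genes had nearly equal time courses. In build GRCm38.p6 they lie on the minus strand at chr7:103827879-103828178 (Hbb-bs) and chr7:103813874-103814173 (Hbb-bt), with capitals as above.
Hbb-bs: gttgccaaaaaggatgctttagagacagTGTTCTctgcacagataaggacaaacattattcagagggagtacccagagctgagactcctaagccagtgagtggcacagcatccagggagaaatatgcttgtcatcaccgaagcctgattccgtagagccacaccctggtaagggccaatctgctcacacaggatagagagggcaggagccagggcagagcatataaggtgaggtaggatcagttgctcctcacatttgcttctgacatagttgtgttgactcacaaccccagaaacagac
Hbb-bt: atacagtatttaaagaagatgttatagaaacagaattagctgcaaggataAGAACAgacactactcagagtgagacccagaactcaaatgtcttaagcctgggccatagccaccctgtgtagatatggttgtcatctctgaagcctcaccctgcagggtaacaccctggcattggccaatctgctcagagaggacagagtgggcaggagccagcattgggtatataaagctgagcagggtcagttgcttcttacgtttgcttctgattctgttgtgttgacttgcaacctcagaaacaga
Each window held 1 match to the glucocorticoid core and none to the other motifs, on opposite strands, and the windows were identical at 71.3% of 307 aligned positions. The core was present in 16.1% of the windowed genes tested here. The coding sequences of the pair are closely related, so each probe may read transcripts of both.

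Hbb-bs read 13.98, 13.81 and 14.36 untreated and 11.97, 11.85 and 10.70 treated at 3 days, and 14.21, 13.79 and 14.19 untreated and 14.36, 14.52 and 14.38 treated at 14 days. Only the 3-day treated arrays were low, and treated 3-day array 3 was the lowest. The effect was -2.54 at 3 days and 0.35 at 14 days, a difference of 2.90 (95% interval 2.08 to 3.71, adjusted p = 0.000917). Hbb-bt had effects of -2.66 and 0.20, a difference of 2.87 (95% interval 2.07 to 3.67, adjusted p = 0.000917). Other probes of the pair, 4 for each gene, gave differences of 2.78 to 3.47 and of 1.46 to 5.01. With treated 3-day array 3 left out, the differences were 2.49 and 2.52.

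Hba-a1 read 13.62, 13.74 and 13.67 untreated and 11.66, 11.72 and 12.22 treated at 3 days, and between 13.35 and 14.34 on all 6 arrays of the 14-day arm. For this alpha-globin gene treated 3-day array 3 was the highest of its group rather than the lowest. The difference was 1.95 (95% interval 1.25 to 2.65, adjusted p = 0.0147) and 2.13 without treated 3-day array 3 (adjusted p = 0.00751), and its call was lost without untreated 3-day array 2 or 3 (adjusted p up to 0.0652). Alas2, the enzyme that starts heme synthesis in red cell precursors, had effects of -1.64 and -0.13, and its difference of 1.51 did not pass (adjusted p = 0.124). Over all 7 measured red blood cell markers the summed level was 15.40 to 15.82 untreated and 13.02 to 13.52 treated at 3 days, and 15.54 to 15.92 on the 14-day arrays. Of the 7, 4 fell at 3 days, where 2.5% of all features fell, and 0 passed at 14 days. For the difference 3 of the 7 passed with a positive value, against 0.0676% of all features. These were Hbb-bs, Hbb-bt and Hba-a1, described above, so this count is no separate observation. All 7 were detected in both untreated groups, and 2 were not detected on any treated 3-day array. The part of blood content in these values was not tested.

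Mybph read 10.97, 11.32 and 11.34 untreated and 9.31, 9.47 and 9.62 treated at 3 days, against 10.30, 10.49 and 10.86 untreated and 10.40, 10.66 and 10.23 treated at 14 days. Its 3-day groups were far apart and its 14-day groups overlapped. The effect was -1.74 at 3 days and -0.12 at 14 days, a difference of 1.63 (95% interval 1.04 to 2.21, adjusted p = 0.0147), and 1.70 without treated 3-day array 3 (adjusted p = 0.0206). The untreated arms themselves differed by -0.66, which did not pass (adjusted p = 0.561), and treated arrays rose by 0.96 between the times (adjusted p = 0.0118). The call was lost, with adjusted p up to 0.0734, without untreated 3-day array 2 or 3, untreated 14-day array 2 or treated 14-day array 2.

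Aqp4 had effects of -0.96 and 0.41 (difference 1.37, 95% interval 0.81 to 1.93, adjusted p = 0.0335), and its other probe a difference of 0.48. Ces1d was very even without DEX, at 11.14, 11.11 and 11.15 in the 3-day and 11.10, 11.10 and 11.02 in the 14-day arm, and read 9.70, 10.03 and 10.11 with DEX at 3 days. At 14 days it read 10.79, 10.87 and 10.96 with DEX, still under every untreated array, but that effect of -0.20 did not pass. The difference was 0.99 (95% interval 0.59 to 1.38, adjusted p = 0.0325). With treated 3-day array 3 left out, the differences were 1.49 for Aqp4 and 1.07 for Ces1d (adjusted p = 0.0325 each). Both calls depended on single arrays, the Aqp4 call being lost in 8 and the Ces1d call in 7 of the 12 fits that left out 1 array, with adjusted p up to 0.0982 and 0.105. For Aqp4 these were the fits without any 1 untreated 3-day or treated 14-day array, treated 3-day array 2 or untreated 14-day array 3. For Ces1d they were those without any 1 untreated 3-day array, untreated 14-day array 2 or 3, or treated 14-day array 2 or 3.

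Larger 3-day falls with no resolved time course were those of Ky, a protein of the Z-disc region, of Igfbp5, an insulin-like growth factor binding protein, and of Prkag3, the muscle regulatory subunit of AMP-activated kinase. Ky read 12.46, 12.36 and 12.74 untreated and 11.19, 10.46 and 8.48 treated at 3 days, treated 3-day array 3 being far below the rest. Its effects were -2.48 and -0.42, and the difference of 2.06 had a 95% interval of 0.84 to 3.27 (adjusted p = 0.143). With treated 3-day array 3 left out, the 3-day effect of Ky was -1.70 and the difference 1.27 (adjusted p = 0.296). Igfbp5 had effects of -2.37 and -0.91, and Prkag3 of -2.26 and -0.48. Without that array their 3-day effects were -1.84 and -1.64, their differences went from 1.46 to 0.93 and from 1.78 to 1.16, and the 14-day fall of Igfbp5 passed (adjusted p = 0.0365). Among rises of this kind were Asb11, a component of ubiquitin ligases, with effects of 1.44 and 0.76, Apod, a lipid-binding lipocalin, with 1.41 and 0.49, and Pnpla2, the main triglyceride lipase, with 1.26 and 0.52. The 14-day effect of Asb11 passed without treated 3-day array 3 (adjusted p = 0.0432), which makes it sustained.

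Late responses were few. Serf1, which encodes a small protein linked to protein aggregation, was the single named gene, and the other 4 late features were probes without a gene name, 3 higher and 1 lower. Serf1 read 7.87, 7.81 and 7.36 untreated and 7.68, 7.63 and 7.44 treated at 3 days, and 8.22, 8.01 and 7.80 untreated and 6.93, 6.49 and 6.73 treated at 14 days. The 3-day groups overlapped and the 14-day groups were apart. The effect was -0.10 at 3 days and -1.29 at 14 days, a fall by a factor of 2.45, and the difference was -1.20 (95% interval -1.70 to -0.70, adjusted p = 0.0418), and -1.27 without treated 3-day array 3 (adjusted p = 0.0462). That call was lost, with adjusted p up to 0.145, without array 2 or 3 of either untreated group or of the treated 14-day group, or treated 3-day array 2. The 3 late rises among unnamed probes each had a negative 3-day effect, of -0.88, -0.65 and -0.59, that did not pass. The late count was 0 to 3 without any 1 untreated 3-day array, treated 3-day array 2 or 3, untreated 14-day array 2 or 3, or treated 14-day array 2 or 3. It was 16 without treated 3-day array 1 and 105 without untreated 14-day array 1.

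Several genes passed at 14 days with the larger effect there, while the difference did not pass. Gsta3, a glutathione transferase, read 5.33, 4.78 and 5.23 untreated and 5.69, 6.25 and 6.38 treated at 3 days, and 4.99, 4.99 and 4.58 untreated and 6.89, 7.09 and 8.16 treated at 14 days. Treated arrays were above untreated arrays at both times, and most so at 14 days. Its effects were 0.99 (adjusted p = 0.0764) and 2.52 (adjusted p = 2.43e-05), and the difference was 1.53 (95% interval 0.59 to 2.48, adjusted p = 0.152). Angptl4, an inhibitor of lipoprotein lipase, had effects of 0.61 and 1.96, although its other probe gave 0.61 and 0.24. Pik3r1, the regulatory subunit of PI3-kinase and a receptor target in muscle, had 0.55 and 1.69, and Lrrc30 had 0.55 and 2.08. Igfbp3, a carrier of insulin-like growth factors, had 0.79 and 1.62. With treated 3-day array 3 left out, the 3-day effects of Pik3r1 and Igfbp3 were 1.00 and 0.99 and passed (adjusted p = 0.0282 and 0.0327), which makes both sustained, and their differences were 0.69 and 0.64. Among falls, Coq10b, a partner of coenzyme Q, had -0.94 and -2.01, with -0.02 at both times on its other probe, and Ccn2, the matrix-linked growth factor CTGF, had -0.51 and -1.63.

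The named genes of antigen presentation on MHC class II had negative effects at both times, larger at 14 days, but no difference passed. H2-Ab1 and H2-Eb1, beta chains of class II molecules, and Cd74, the invariant chain that escorts them, all fell at both times, and H2-Aa, an alpha chain, passed at 14 days. H2-Ab1 read 9.02, 9.22 and 8.57 untreated and 7.54, 7.80 and 7.23 treated at 3 days, and 9.21, 9.24 and 9.21 untreated and 6.66, 6.50 and 6.75 treated at 14 days. Treated and untreated arrays did not overlap at either time. Its effects were -1.41 and -2.59 (2.67-fold and 6.01-fold lower), and the difference of -1.17 did not pass (95% interval -1.85 to -0.50, adjusted p = 0.134). The differences were -1.29 for H2-Eb1 (adjusted p = 0.124), -1.40 for H2-Aa (adjusted p = 0.0962) and -1.11 for Cd74 (adjusted p = 0.133), the other Cd74 probe giving -0.12. Of 27 interferon and antigen presentation genes 7 fell at each time, 4 of them sustained, and 0 rose, where 2.5% of all features fell at 3 days and 2.16% at 14 days. The 3-day falls of this list numbered 4 without treated 3-day array 3. The list's median effects were -0.358 at 3 days and -0.377 at 14 days, with a median difference of -0.238. Under cyclic loess (-0.433 and -0.365) and median scaling (-0.457 and -0.407) the 14-day median was the smaller in size. With the authors' table and with normexp at an offset of 50 it was the larger. The median difference stayed negative in all of these. Of 14 macrophage markers 2 fell at 3 days and 4 at 14 days. Their summed level was 10.82 to 11.06 untreated and 10.44 to 10.67 treated at 3 days, and 11.04 to 11.43 untreated and 10.55 to 10.70 treated at 14 days. At most 2 of the 14 were undetected throughout a group. The part of macrophages in the class II values was not tested.

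Cdkn1a and Fkbp5 led the sustained rises when ranked by the smaller of the 2 effects, with Odf3l2 next. Fkbp5 read 6.30, 7.00 and 6.64 untreated and 9.50, 9.47 and 10.13 treated at 3 days, and 6.24, 7.12 and 7.18 untreated and 9.88, 9.53 and 9.42 treated at 14 days. The gap between treated and untreated arrays exceeded 2 log2 units at both times. Its effects were 3.06 and 2.77 (8.32-fold and 6.80-fold), and the difference of -0.29 had a 95% interval of -0.95 to 0.37. Cdkn1a, the cell cycle inhibitor p21, had effects of 3.18 and 2.96 (difference interval -0.96 to 0.52), with 3.30 and 2.68 on its other probe. Mt1, a metallothionein that binds zinc, had 2.39 and 1.93, and Mt2 had 1.33 and 1.52. Slc30a2, a zinc transporter, rose by 1.78 and 1.69.

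Lcn2, a secreted lipocalin that binds bacterial iron carriers, was higher by at least 5.66-fold at 3 days, given as a bound because it was not detected on any untreated 3-day array, and by 2.34 log2 at 14 days. Hp, which binds free hemoglobin, rose by 2.47 and 2.21. Cxcl13, a chemokine for B cells, rose at least 2.95-fold at 3 days and by 2.23 log2 at 14 days. Klk1b26, a kallikrein, had the widest gap among these rises, with 1.80 at 3 days and 3.04 at 14 days (difference 1.24, 95% interval 0.44 to 2.04, adjusted p = 0.171). When treated 3-day array 3 was left out, the Klk1b26 difference was 0.81, and its other probe gave effects of 1.51 and 1.71. Odf3l2, known from sperm tails, had effects of 2.64 and 3.15. Hectd2, a ubiquitin ligase, had 2.32 and 2.54 on the probe used, while its 3 other probes lay between -0.32 and 0.14 at both times.

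Of 34 glucocorticoid-responsive genes, 8 rose and 0 fell at 3 days, and 9 rose and 1 fell at 14 days, with 6 sustained rises and medians of 0.43 and 0.29. Of all features 2.87% rose at 3 days and 1.11% at 14 days. The 14-day fall was that of Per1, a call that held in 15 of 24 alternative fits (limma adjusted p up to 0.166). Among 19 ubiquitin ligases linked to atrophy 4 rose at 3 days and 1 at 14 days. In the fit without treated 3-day array 3, 2 of them rose and 1 fell at 3 days. Fbxo32, atrogin-1, was the sustained member, and it read 8.65, 8.69 and 8.45 untreated and 10.24, 10.30 and 10.67 treated at 3 days, and 9.62, 8.54 and 8.66 untreated and 10.82, 10.42 and 9.87 treated at 14 days. Untreated 14-day array 1 stood above the other untreated arrays and yet below each treated one. Its effects were 1.81 and 1.43, with 1.84 and 1.12 on the other probe. Among fuel genes, Pdk4, the kinase that shuts off pyruvate dehydrogenase, rose by 1.41 and 1.88. Ppp1r3c, which targets a phosphatase to glycogen, rose by 1.71 and 1.45, and Prodh, the first enzyme of proline breakdown, by 1.21 and 1.05.

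Actc1, cardiac alpha-actin, led the sustained falls, followed by the clock gene Dbp and by Col1a1. Actc1 read 11.87, 11.45 and 12.07 untreated and 8.02, 8.27 and 8.66 treated at 3 days, and 11.22, 11.62 and 12.10 untreated and 8.29, 9.06 and 8.30 treated at 14 days. The treated arrays of both arms lay more than 2 log2 units under every untreated array. It fell by 3.48 and by 3.10 (11.1-fold and 8.56-fold lower), with a difference interval of -0.34 to 1.09. Nrep, known from regenerating neurons, had -2.88 and -1.82 (difference 1.06, 95% interval 0.51 to 1.61, adjusted p = 0.102). Gamt, the last enzyme of creatine synthesis, fell by 2.12 and 1.72. Rsph1, known from cilia, fell by 2.56 and 2.61, and Ecrg4, a secreted peptide precursor, by 2.75 and 2.22.

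Type I collagen fell to like levels at both times. Col1a1, the alpha-1 chain of type I collagen, read 9.75, 9.84 and 10.34 untreated and 7.29, 6.64 and 6.79 treated at 3 days, and 9.59, 9.83 and 9.60 untreated and 6.25, 7.07 and 6.79 treated at 14 days. The treated arrays of the arms overlapped each other and none overlapped an untreated array. It fell by 3.07 and 2.97, and the difference of 0.09 had a 95% interval of -0.68 to 0.87. Col1a2, the partner chain, was at least 2.92-fold lower at 3 days, where no treated array detected it, and fell by 1.69 log2 at 14 days. Of 50 matrix genes 12 fell at 3 days and 19 at 14 days, 12 of them at both times, and 0 rose, where 2.5% and 2.16% of all features fell. The list's median was -0.26 at 3 days and -0.56 at 14 days, and 0 members passed for the difference, with 9 lower at an unadjusted p under 0.05, where 7.69% of all features were.

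Tendon genes fell at both times too, 5 of 12 having fallen at 3 days and 6 at 14 days, against 2.5% and 2.16% of all features. Cilp2, a cartilage matrix protein, fell by 2.47 and 2.58, Kera, a keratan sulfate proteoglycan, by 1.96 and 2.18, and Chad, a collagen-binding cartilage protein, by 1.67 and 2.17. Fibroblast markers fell in 6 of 15 at 3 days and 8 of 15 at 14 days, with 1 rise at each time. Among the falls were Thy1 at -1.46 and -1.82 and Lum, a collagen-binding proteoglycan, at -1.55 and -1.23. In the fit without treated 3-day array 3, 5 fibroblast markers fell and 0 rose at 3 days. The summed tendon marker level was 11.43 to 11.89 untreated and 10.46 to 10.65 treated at 3 days, and 11.87 to 12.32 untreated and 10.49 to 11.27 treated at 14 days. The part of connective tissue content in the matrix values was not tested.

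Clock genes passed at both times, in both directions. Dbp, a clock output factor, read 11.70, 11.73 and 11.18 untreated and 8.40, 8.61 and 8.43 treated at 3 days, and 11.32, 11.95 and 11.80 untreated and 7.21, 8.56 and 8.27 treated at 14 days. Every treated array lay at least 2 log2 units under the untreated ones. It fell by 3.06 and 3.68 (8.32-fold and 12.8-fold lower). Per2, a repressor arm of the clock, had -1.38 and -2.32, and Arntl, which encodes the activator BMAL1 and peaks opposite to Dbp, rose by 1.74 and 1.37. The 3-day call of Per2 held in 14 of 24 alternative fits, with limma adjusted p up to 0.12. Of 17 clock genes 3 rose and 6 fell at 3 days, and 1 rose and 6 fell at 14 days, where 2.87% and 2.5% of all features rose and fell at 3 days and 1.11% and 2.16% at 14 days. The labels do not give the hour at which each group was sampled. Oxidative phosphorylation subunits, 57 in number, had 0 calls by limma at either time, with 3 at 3 days and 10 at 14 days at an unadjusted p under 0.05, where 19.5% and 14.3% of all features had one, and median effects of -0.0036 and -0.14. Their median difference of -0.13 turned to 0.054 under cyclic loess scaling.

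**Figure D4:**
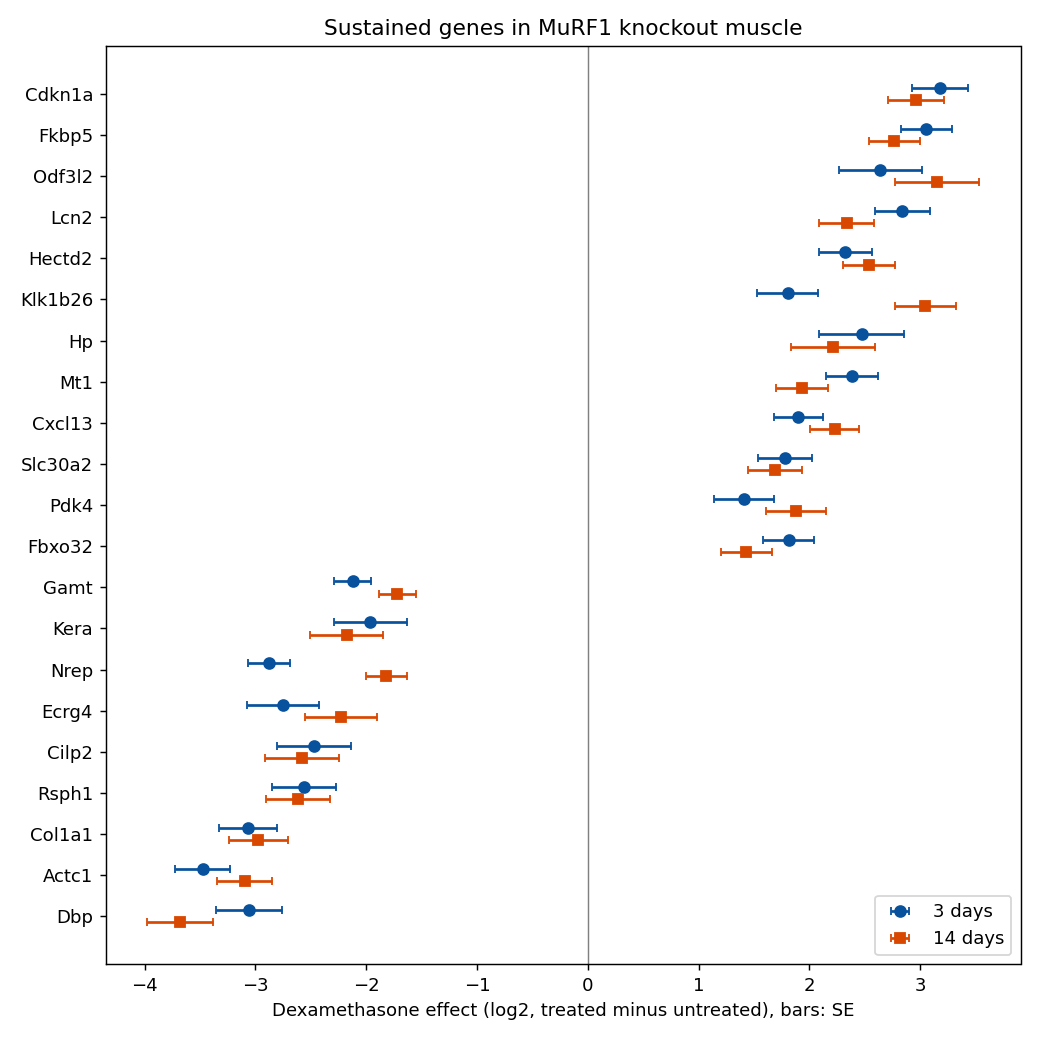
DEX effect (log2, treated minus untreated) at 3 days (circles) and 14 days (squares) for 21 sustained genes, with bars for the standard error. Symbols of the 2 times lie close together for most genes, which the definition of the class favours, and Klk1b26 and Nrep show the widest gaps.

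The difference between the effects is made of a change among treated and a change among untreated arrays, and these were compared apart. Treated muscle at 14 days differed from treated muscle at 3 days in 556 features (3.42%), 246 higher (1.51%) and 310 lower (1.91%). Untreated muscle of the 14-day arm differed from that of the 3-day arm in 1 feature (0.00615%), a probe without a gene name, although 1072 had an unadjusted p under 0.05. When treated 3-day array 3 was left out, the treated count was 88, and without treated 3-day array 1 it was 1409. The treated count was 342, 106 and 233 without treated 14-day array 1, 2 or 3. With a replicate block the treated count was 5 by the signal table's numbers and 14 by the titles' numbers. Without a block, all 13 named genes with a called difference also passed between the treated groups. Between the untreated groups 0 of them passed, and 4 (Mustn1, Mybph, Rgcc and Tnfrsf12a) had an unadjusted p under 0.05. These genes were picked on the difference, of which the treated change is a part, so their passing between treated groups is favoured by construction.

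Wild-type arrays, which share none with the knockout arrays, gave a difference between the times in 24 features (0.148%), 10 positive (0.0615%) and 14 negative (0.0861%). Of the 13 named genes, 12 had the same sign of difference in wild type and 6 passed there. The share of all features with the same sign in both genotypes was not counted. The beta-globin pair may not be separate cases, since each probe may read transcripts of both. Tnfrsf12a differed by -1.84 in wild type (adjusted p = 0.00237), Klhl30 by -1.19, Hbb-bs by 2.31, Hbb-bt by 2.37, Hba-a1 by 2.10 and Ces1d by 0.98. Rgcc was the gene of opposite sign, at -1.22 in the knockout and 0.23 in wild type, and that contrast of -1.45 did not pass (adjusted p = 0.737). For Mybph the values were 1.63 and 0.64, and for Eif4ebp1 -1.45 and -0.80. Across all features the knockout and wild-type differences were distinguishable in 0 of 16262 (0%), with 703 at an unadjusted p under 0.05. No called time difference was thus shown to depend on MuRF1.

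**Figure D5:**
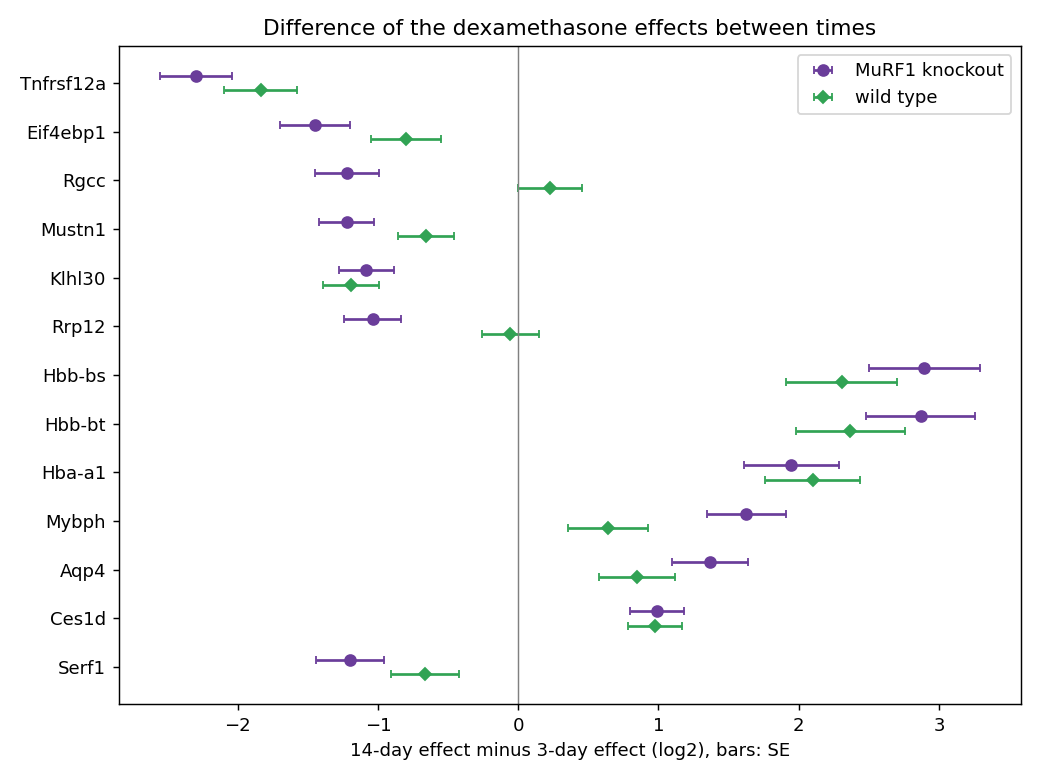
The 14-day effect minus the 3-day effect (log2) for the 13 named genes in MuRF1 knockout (circles) and wild type (diamonds), with bars for the standard error. Both genotypes lie on the same side of 0 for 12 of the 13 genes, and Rgcc lies on opposite sides.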

How the data were processed

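RNA of 24 muscle samples was read on 46632 beadchip probes. The authors deposited an average signal intensity and a detection p-value per probe and array, per the file headers, and a value table of linear intensity with no stated normalization. The submitters' processing notes name BeadStudio 3.2.3 without a role. The signals were background-corrected with normexp from the detection p-values, quantile-normalized with an offset of 16, which understates folds of dim genes, and taken to log2 (neqc, limma 3.58.1, R 4.3.3). Probes with detection p under 0.05 on at least 3 of 24 arrays were kept (20769), and the brightest probe stood for each gene. GEO's platform annotation gave 1 symbol for 29976 probes, several for 10 and none for 16646, so 11010 features were named and 5252 were not.

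One limma model with 8 group means and 16 residual degrees of freedom gave all comparisons, each adjusted by Benjamini-Hochberg over 16262 features. It was tested on simulated data. A fold against a group with no detected array was given as a bound. Members and lists were chosen with earlier results of these data known. Named were up to 10 genes per direction for each class with a called difference, the 10 sustained genes per direction with the largest smaller effect, 3 per direction of each unresolved class and up to 4 per list. Array numbers are those of the signal table, which differ from the sample titles' numbers in 5 of 8 groups. Deviations of same-numbered arrays correlated at -0.474 to 0.0856 by the signal table's numbers and at -0.212 to 0.416 by the titles' numbers. Arrays of different numbers were not compared, so whether either numbering pairs samples was not tested. Alternatives covered background, scaling, detection filter, the authors' table, knockout arrays alone, array weights, all probes, replicate blocks and leaving out arrays. Promoter windows came from RefSeq GRCm38.p6.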

Additional observations from a re-analysis of the deposited data

Results flagged for a closer look

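The 21 features named here were singled out because the DEX effect differed between 3 and 14 days by the limma test of the difference itself, and values are the 14-day effect minus the 3-day effect on the log2 scale. Effects that shrank or turned from a rise were those of Tnfrsf12a (-2.30), Eif4ebp1 (-1.45), Rgcc (-1.22), Mustn1 (-1.22), Klhl30 (-1.08) and Rrp12 (-1.04). Falls at 3 days that were smaller or absent at 14 days gave positive values for Hbb-bs (2.90), Hbb-bt (2.87), Hba-a1 (1.95), Mybph (1.63), Aqp4 (1.37) and Ces1d (0.99). Serf1, which fell at 14 days, had -1.20.

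The other 8 were probes without a gene name here. ILMN_1217912 (2.12), ILMN_1222194 (1.53) and ILMN_2715280 (1.48) were late rises, and ILMN_1251292 (-1.31) was a late fall. ILMN_2428263 (1.94) and ILMN_1212883 (1.53) had falls that were smaller at 14 days, the latter at least 4.55-fold lower at 3 days, where no treated array detected it. ILMN_1231765 (-1.24) and ILMN_2772022 (-1.19) had rises that were smaller at 14 days. The calls of Tnfrsf12a, Hbb-bs and Hbb-bt held in all 24 alternative fits. Leaving out 1 knockout array at a time ended no call of these or of Mustn1 and ILMN_2772022, while each of the other features lost its call in 2 to 9 of the 12 fits.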

How the results depend on the processing

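Of 179 values, 8 of them differences of probes without a gene name and the others of named genes, each refitted under 24 alternatives, 3832 of 4296 fits kept direction and side of the threshold, 464 kept the direction but missed the threshold, and 0 reversed. For an effect at 1 time, leaving out an array of the other arm cannot move the estimate, only the spread, so such fits tend to agree. All 20 sustained genes named by size passed at both times in each fit, having been picked for large effects in these same data. Counts moved far more, and why was not tested. In the order 3-day effect, 14-day effect, difference, treated groups compared and untreated groups compared, array weights gave 2107, 2862, 1072, 1564 and 716 features, and 25 for the contrast of knockout with wild type. Knockout arrays alone gave 453, 309, 3, 60 and 2, and median scaling 320, 208, 3, 80 and, within 1.5 times, 1. Leaving out both arrays that stood apart, chosen after seeing the data, gave 1567 at 14 days, 94 for the difference (20 of the 21 among them), 165, 31 and, between genotypes, 2. The difference count was 61 with normexp and an offset of 50, 32 with the authors' table and 33 with all probes as features. The untreated count was 4 with cyclic loess, 3 with no detection filter, 4 with the authors' table and 2 with all probes, and the authors' table gave 4 between genotypes.

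Class counts followed. Array weights gave 627 sustained, 366 transient, 468 late, 27 waning, 19 growing, 61 opposite, 131 with a difference alone, 1007 unresolved at 3 days and 1660 at 14 days. Leaving out both arrays gave 35 transient, 45 late, 1 growing, 5 opposite, 3 with a difference alone, 340 and 1247 unresolved. Median scaling gave 98 sustained, 3 transient, 0 late, 0 waning, 219 and 110 unresolved, and knockout arrays alone 2 transient, 0 late, 1 waning, 300 and 158 unresolved. Normexp gave 39 transient, 10 late, 8 waning, 3 opposite and 1 with a difference alone. The authors' table gave 20 transient, 3 waning and 4 opposite, all probes 22 transient, cyclic loess 0 late and 1 opposite, and no filter 2 late, 3 waning and 1 opposite.

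Whether the replicate numbers pair the samples was not tested. With a replicate block of the signal table's numbers, 510 features passed at 3 days, 323 at 14 days, 3 for the difference, 5 between treated and 0 between untreated groups, with 2 transient, 0 late, 1 waning, 356 and 171 unresolved. A replicate block of the titles' numbers, added after seeing the data, gave 14 between treated groups, with 26 for the difference, 17 transient, 2 late, 3 waning, 1 growing and 4 opposite.

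Leaving out 1 knockout array at a time gave 493 to 1332 features at 3 days, 298 to 809 at 14 days, 5 to 368 for the difference, 88 to 1409 between treated groups, 1 to 11 between untreated groups and 0 between genotypes. Classes ranged over 154 to 227 sustained, 4 to 158 transient, 0 to 105 late, 1 to 7 waning, 0 to 4 growing, 0 to 8 opposite, 0 to 86 with a difference alone, 286 to 1031 unresolved at 3 days and 122 to 478 at 14 days. The fitted Trim63 difference, which is no measured size because treated 14-day arrays did not detect the gene, stayed between -0.55 and -0.20. Genes near background have only bounds or understated folds.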

Other observations

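Genes of the skin's outer layer were uneven within groups. They were picked after their values were seen, and are given as a description. The summed log2 level of 10 such genes, among them Lor, a protein of the cornified cell envelope, and the keratins Krt14 and Krt10, was 7.74 to 7.84 on the untreated 3-day arrays and 11.0, 8.90 and 8.31 on the treated 3-day arrays. In the 14-day arm it was 7.81, 11.4 and 9.52 untreated and 7.83, 8.22 and 8.20 treated. Lor alone read 9.66, 7.23 and 5.55 with DEX at 3 days and 4.28, 9.60 and 7.54 without DEX at 14 days.

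On treated 3-day array 3, 24 features lay at least 3 log2 units below the mean of the other 2 arrays of the group and 0 lay above. The other treated 3-day arrays had 14 and 11 such features above it and 0 and 1 below, and the remaining knockout arrays had at most 2 in either direction. Array 3 is part of the mean for those treated 3-day arrays, so a feature far lower on array 3 can count as higher on them. Ahnak read 4.12 on array 3 against 11.89 and 11.55 on the others, Gpcpd1 4.40 against 11.64 and 11.37, and Rapgef1 4.61 against 12.47 and 11.94.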
